A study of Mus musculus with 4 samples.

Results

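Bipolar cells carry the photoreceptor signal to the inner retina, and 10 of their genes were followed in *rd7* and wild-type retinas. The 10 were chosen by name as ON bipolar signalling genes and as markers of rod or cone bipolar cells: *Grm6*, *Trpm1*, *Nyx*, *Gpr179*, *Pcp2*, *Prkca*, *Cabp5*, *Vsx1*, *Isl1* and *Scgn*. All 10 are among the 22095 loci of the deposited table and all 10 passed the filter on low expression that left 12655 genes to test. The *rd7* mice are *Nr2e3* mutants, and the NR2E3 protein is a nuclear receptor by which developing rods repress cone genes, and the wild-type retinas were from C57BL/6J mice; the labels name C57BL/6J as the strain of both groups. Mice were 3 weeks old. There were 2 libraries of each genotype, and each was made from a pool of 8 retinas from 2 females and 2 males, so replicates differ as pools of animals do. RNA came from the whole retina, where a change in the number of bipolar cells and a change in RNA per bipolar cell cannot be told apart.

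ON bipolar cells sense glutamate through the metabotropic receptor mGluR6, encoded by *Grm6*. In darkness the receptor acts through a G protein to hold the cation channel TRPM1 closed, and light, by lowering glutamate release, lets the channel open and the cell depolarize. Nyctalopin, encoded by *Nyx*, and GPR179 organize this complex at the dendrite tip, and loss of any of these genes abolishes the ON response and causes night blindness. Rod bipolar cells are all of the ON kind, whereas cone bipolar cells comprise ON types and OFF types, which use ionotropic glutamate receptors instead. The question addressed was how these postsynaptic cells look behind the altered photoreceptors of the *rd7* retina.

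Expression was measured as FPKM, the number of sequenced fragments per kilobase of transcript, scaled to the mapped fragments of the library, which allows levels of different genes to be compared within a library. Differences are given on the scale of log2(FPKM + 0.1), as *rd7* minus wild-type, and were tested with limma, two-sided, with calls made where the adjusted p, over all 12655 genes, held the false discovery rate (FDR) to 5%. The median difference of all genes tested was 0.15, so that a difference near that value is the one of a typical gene. The mutated gene, *Nr2e3*, reached 2493 and 1589 FPKM in *rd7* against 385 and 394 FPKM in wild-type retinas, and higher transcript levels in this mutant are what the submitters' design text states.

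Of the 10 bipolar cell genes, 7 rose in *rd7* retinas (*Nyx*, *Trpm1*, *Vsx1*, *Cabp5*, *Isl1*, *Scgn* and *Prkca*) and none fell, against a background of 37.6% of all genes tested that were called higher and 8.8% called lower (46.4% in either direction). The count of 0 lower genes is from limma, and it was also 0 at an unadjusted p under 0.05. *Grm6*, *Pcp2* and *Gpr179* did not pass the test. The median difference of the 10 was 0.35, against 0.15 for all genes tested. The share of genes called higher depends on how the libraries are scaled, and 4 of the 7 calls held under each refit that kept all libraries: *Nyx*, *Trpm1*, *Vsx1* and *Cabp5*. With median-ratio scaling, which brings the median difference of all genes from 0.15 to -0.0049, these 4 were the members called higher, against a background of 19.7%. After correcting for base composition and transcript length the same 4 were called, against 12.4%, and with quantile normalization again these 4, against 18.6% higher and 19.0% lower. Of the 10 genes, 7 had a pair of *rd7* values that lay entirely above the wild-type pair, as did 57.1% of all genes tested.

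**Figure D1:**
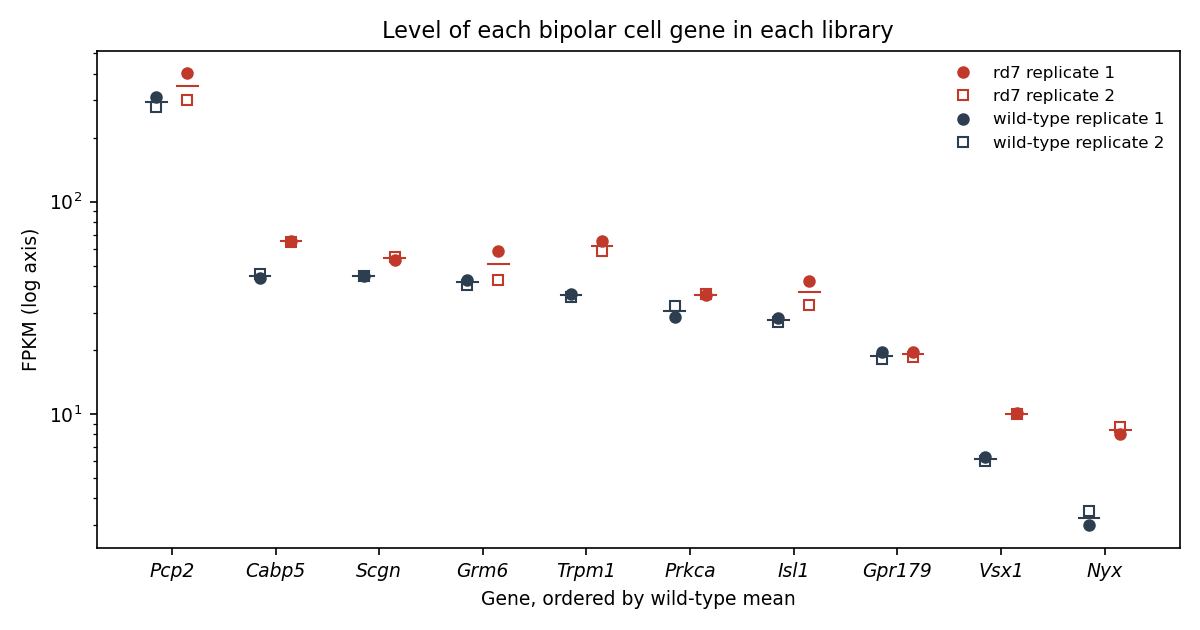
FPKM (log axis) of each of the 10 bipolar cell genes in each library; filled circles are replicate 1, open squares replicate 2, and short lines the mean of each genotype (n = 2). *Nyx*, the lowest of the 10, stands furthest apart between genotypes (2.99 and 3.49 against 8.06 and 8.69), while the *Gpr179* points of both genotypes lie between 18.2 and 19.6.

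In wild-type retinas the levels of the 10 genes covered a wide range. *Pcp2*, whose product binds the G protein alpha subunits of these cells, was the highest, with a mean FPKM of 295 ± 21.2 (SD, n = 2). It was followed by *Cabp5* (44.7 ± 1.54), *Scgn* (44.5 ± 0.116), *Grm6* (41.7 ± 1.62), *Trpm1* (36.2 ± 0.774), *Prkca* (30.4 ± 2.58), *Isl1* (27.7 ± 1.01), *Gpr179* (18.8 ± 0.897), *Vsx1* (6.14 ± 0.202) and *Nyx* (3.24 ± 0.356). Among neighbours in this order, *Cabp5* and *Scgn* overlapped and the others did not. In *rd7* retinas *Trpm1* moved up past *Grm6* and *Scgn* to lie next to *Cabp5*, and *Isl1* and *Prkca*, which overlapped there, exchanged places. *Pcp2* remained the highest (352 ± 71.0, SD, n = 2) and *Vsx1* and *Nyx* the lowest. Averaged over the 4 libraries, *Pcp2* was above 99.0% of the genes tested and *Nyx* above 31.5%.

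*Nyx* showed the largest difference of the 10. It spans 13044798 to 13066439 of the X chromosome (mm9, as all positions of genes here) and encodes nyctalopin, a leucine-rich repeat protein. The *rd7* libraries held 8.06 and 8.69 FPKM, against 2.99 and 3.49 FPKM in wild-type. The 2 genotypes do not overlap, and the *rd7* mean was 2.59 times the wild-type mean. The log2 difference was 1.35 (standard error 0.10, 95% interval 1.10 to 1.59, adjusted p = 0.000807 from limma), above that of 99.1% of the genes tested. Over all refits it ranged from 1.15 to 1.46.

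*Trpm1*, the gene of the channel that the cascade controls, lies on chromosome 7 from 71298721 to 71414645. The *rd7* libraries held 65.4 and 58.8 FPKM, against 36.7 and 35.6 FPKM in wild-type. The genotypes do not overlap, and the *rd7* mean was 1.72 times that of wild-type. The log2 difference was 0.78 (standard error 0.06, 95% interval 0.62 to 0.94, adjusted p = 0.00109 from limma), and it ranged from 0.50 to 0.85 over all refits. A microRNA gene, *Mir211*, lies within the *Trpm1* locus and is listed at 0 in all 4 libraries.

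*Grm6*, the gene of the receptor, lies on chromosome 11 from 50664187 to 50679710. The *rd7* libraries held 58.5 and 42.7 FPKM, against 42.8 and 40.5 FPKM in wild-type. The *rd7* replicate 1 is high, and *rd7* replicate 2 lies just under wild-type replicate 1, so the genotypes overlap. The log2 difference of 0.26 (standard error 0.14, 95% interval -0.09 to 0.62) did not pass the test (adjusted p = 0.181 from limma). It was 0.04 without *rd7* replicate 1 and 0.49 without *rd7* replicate 2, so the value rests on which pool is used. The 2 *rd7* pools differed in *Grm6* by 0.45 on the log2 scale, more than in 95.8% of the genes tested.

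*Gpr179*, also on chromosome 11 (97193423 to 97213387), encodes the orphan receptor that anchors the RGS proteins of the complex. The *rd7* libraries held 19.6 and 18.5 FPKM, against 19.5 and 18.2 FPKM in wild-type. The genotypes overlap. The log2 difference was 0.02, with a 95% interval of -0.14 to 0.17 that lies below the differences of *Nyx* and *Trpm1* (adjusted p = 0.832 from limma). With median-ratio scaling it was -0.14 and not called.

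The FPKM of the 4 ON signalling genes therefore did not keep their proportions in these libraries. This can be read from ratios within a library, which do not change when a whole library is scaled by 1 factor. Quantile normalization and the GC and length correction can change such ratios. The ratio of *Nyx* to *Gpr179* FPKM reached 0.410 and 0.470 in *rd7* against 0.154 and 0.192 in wild-type retinas. That of *Trpm1* to *Gpr179* was 3.33 and 3.18 in *rd7* and 1.89 and 1.96 in wild-type retinas. Neither ratio overlaps between genotypes, but how often other pairs of genes overlap was not counted. Against *Grm6*, the ratio of *Trpm1* was 1.12 and 1.38 in *rd7* and 0.857 and 0.879 in wild-type retinas, and that of *Nyx* was 0.138 and 0.203 in *rd7* and 0.0697 and 0.0861 in wild-type retinas. The ratio of *Gpr179* to *Grm6* was 0.335 and 0.433 in *rd7* and 0.454 and 0.449 in wild-type retinas, with the lowest value in *rd7* replicate 1, where *Grm6* was high. These ratios are given as values and were not tested.

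**Figure D2:**
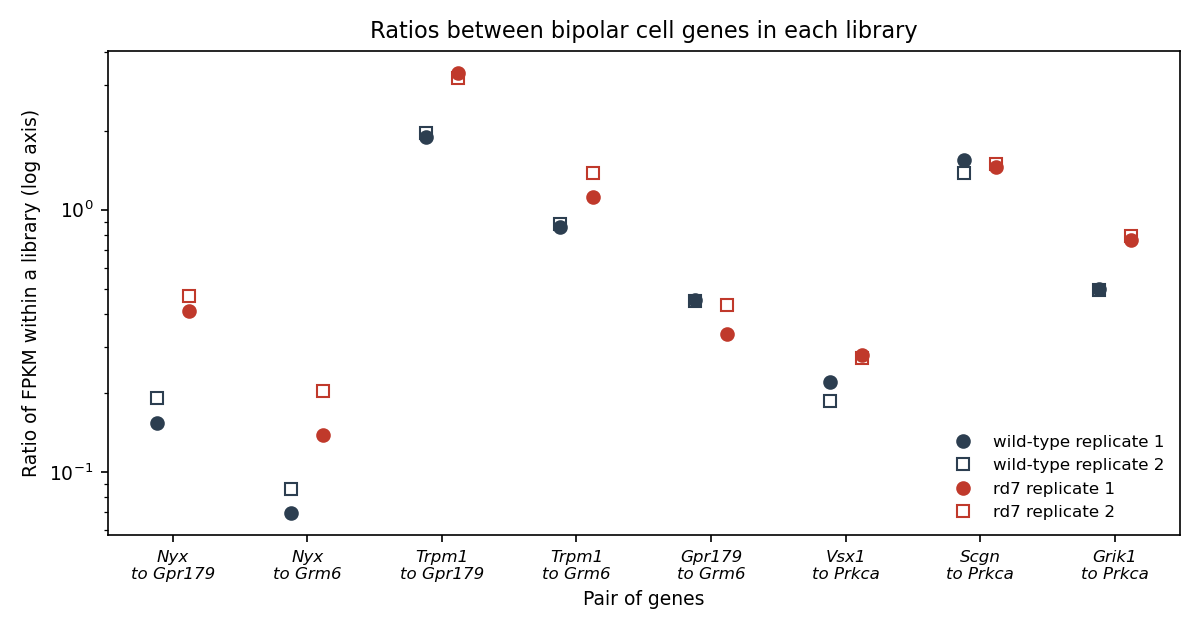
Ratio of FPKM between pairs of genes within each library (log axis); filled circles are replicate 1 and open squares replicate 2 of each genotype. The ratios of *Nyx* and *Trpm1* to *Gpr179* or *Grm6* are higher in both *rd7* libraries than in both wild-type libraries, whereas *Scgn* to *Prkca* lies between 1.38 and 1.55 in all 4.

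Of the rod bipolar genes, *Prkca* was called higher by a small difference and *Pcp2* was not called. *Prkca*, the gene of protein kinase C alpha and the usual marker of rod bipolar cells, lies on chromosome 11 from 107794701 to 108205202. It stood at 36.4 and 36.6 FPKM in *rd7* retinas and at 28.5 and 32.2 FPKM in wild-type ones. The genotypes do not overlap, and the log2 difference was 0.27 (standard error 0.07, adjusted p = 0.0248 from limma). The call was lost with median-ratio scaling (0.11) and quantile normalization (0.12), without wild-type replicate 1 (0.18), without a filter on low FPKM and without a variance trend, and after the GC and length correction its sign turned (-0.04, adjusted p = 0.659 from limma). *Pcp2* spans 3623371 to 3625545 of chromosome 8 and reached 402 and 302 FPKM in *rd7* and 310 and 280 FPKM in wild-type libraries. As with *Grm6*, *rd7* replicate 1 is high and *rd7* replicate 2 lies among the wild-type values. The log2 difference of *Pcp2* was 0.24 (95% interval -0.09 to 0.58, adjusted p = 0.191 from limma). It was 0.04 without *rd7* replicate 1 and 0.45 without *rd7* replicate 2.

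*Cabp5* encodes a calcium-binding protein of rod bipolar cells and of some cone bipolar types and lies on chromosome 7 from 13983504 to 13994227. It stood at 65.5 and 64.5 FPKM in *rd7* retinas and at 43.7 and 45.8 FPKM in wild-type ones. Replicates lie close together and the genotypes far apart, with a log2 difference of 0.54 (standard error 0.05, adjusted p = 0.00134 from limma) or 1.45 times the wild-type mean. It was the smallest of the 4 differences that stayed called under each refit with all libraries, and it ranged from 0.27 to 0.57 over all refits. Within a library, *Cabp5* was 1.80 and 1.77 times *Prkca* in *rd7* and 1.53 and 1.42 times in wild-type retinas.

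Of the cone bipolar genes, *Vsx1* and *Scgn* both rose, by different amounts. *Vsx1*, on chromosome 2 from 150506440 to 150514873, encodes a homeodomain transcription factor needed for the late differentiation of OFF cone bipolar cells. It stood at 10.1 and 9.94 FPKM in *rd7* retinas and at 6.29 and 6.00 FPKM in wild-type ones. The genotypes do not overlap, and the log2 difference of 0.70 (standard error 0.06, 95% interval 0.55 to 0.85, adjusted p = 0.00125 from limma) ranged from 0.51 to 0.73 over all refits. *Scgn*, the gene of the calcium sensor secretagogin, lies on chromosome 13 from 24045326 to 24083083. It stood at 53.1 and 54.9 FPKM in *rd7* retinas and at 44.4 and 44.5 FPKM in wild-type ones, again without overlap. The log2 difference of *Scgn* was 0.28 (standard error 0.05, adjusted p = 0.00637 from limma). It was also 0.28 with either wild-type library left out, but the call was lost in these fits. With all libraries kept, the call was lost with median-ratio scaling (0.13), quantile normalization (0.15) and the GC and length correction (0.11). The ratio of *Vsx1* to *Prkca* was 0.279 and 0.272 in *rd7* and 0.220 and 0.186 in wild-type retinas, whereas that of *Scgn* to *Prkca* overlapped (1.46 and 1.5 against 1.55 and 1.38).

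*Isl1*, on chromosome 13 from 117088478 to 117099896, encodes a LIM-homeodomain factor of ON bipolar cells that ganglion cells and starburst amacrine cells also express. It stood at 42.4 and 32.5 FPKM in *rd7* retinas and at 28.4 and 27.0 FPKM in wild-type ones. The genotypes do not overlap, but *rd7* replicate 1 again stands above *rd7* replicate 2, by 0.38 on the log2 scale. The log2 difference was 0.42 (standard error 0.12, 95% interval 0.12 to 0.73, adjusted p = 0.0364 from limma). It was 0.23 without *rd7* replicate 1, 0.61 without *rd7* replicate 2, 0.46 without wild-type replicate 1 and 0.39 without wild-type replicate 2. The call was lost with either wild-type replicate left out, without a filter on low FPKM and without a variance trend. It was also lost with median-ratio scaling (0.27), with quantile normalization (0.29) and after the GC and length correction (0.17). *Chat*, which marks starburst cells, had an FPKM of 5.69 and 5.84 in *rd7* and of 4.45 and 4.87 in wild-type libraries. Of 8 ganglion cell markers, 2 (*Slc17a6* and *Pou4f1*) were called higher, and their summed FPKM was 762 and 680 in *rd7* and 691 and 711 in wild-type retinas. The part of these cells in the *Isl1* value was not tested.

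**Figure D3:**
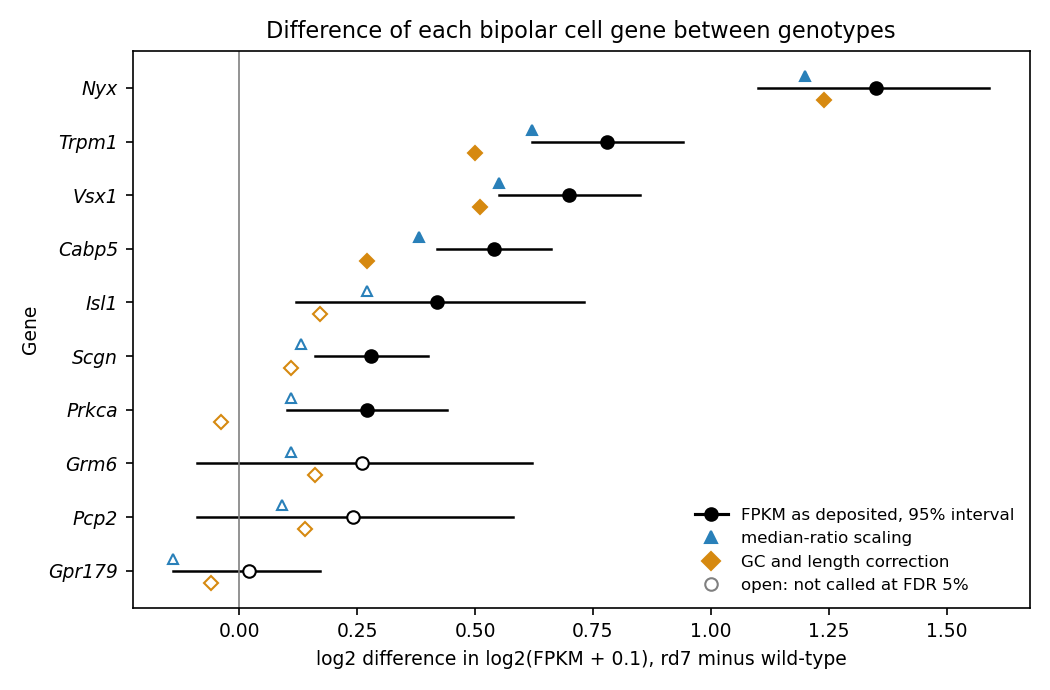
Difference in log2(FPKM + 0.1), *rd7* minus wild-type, of each bipolar cell gene: black circles with 95% intervals from limma on FPKM as deposited, blue triangles with median-ratio scaling and orange diamonds after the GC and length correction; open symbols did not pass an FDR of 5%. *Nyx*, *Trpm1*, *Vsx1* and *Cabp5* stay filled and above 0 in all 3, while the others move to within 0.30 of 0 on either side when scaled or corrected.

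The letters upstream of the members' starts are shown for *Trpm1*, *Cabp5* and *Isl1*, which hold the sequence TAATCC (or GGATTA on the other strand) read by the homeodomain factors OTX2 and CRX, and for *Nyx*, which had the largest difference and holds none. They are from RefSeq, build GRCm38.p6, 250 bases up to the base before the annotated start and written 5′ to 3′ along the gene, with matches in capitals. For *Trpm1*, which has a pair of annotated starts, the upstream one is shown.
Trpm1, chr7:64153585-64153834, plus strand: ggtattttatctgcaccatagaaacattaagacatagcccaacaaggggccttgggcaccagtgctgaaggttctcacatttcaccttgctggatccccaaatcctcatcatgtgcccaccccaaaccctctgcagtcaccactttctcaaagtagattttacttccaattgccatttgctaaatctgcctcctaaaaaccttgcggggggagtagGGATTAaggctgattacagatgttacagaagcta
Cabp5, chr7:13397905-13398154, plus strand: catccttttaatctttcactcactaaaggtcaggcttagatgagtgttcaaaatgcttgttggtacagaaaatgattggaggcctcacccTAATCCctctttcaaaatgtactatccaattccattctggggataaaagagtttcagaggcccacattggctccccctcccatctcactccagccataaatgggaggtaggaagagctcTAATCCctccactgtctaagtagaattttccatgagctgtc
Isl1, chr13:116309689-116309938, minus strand: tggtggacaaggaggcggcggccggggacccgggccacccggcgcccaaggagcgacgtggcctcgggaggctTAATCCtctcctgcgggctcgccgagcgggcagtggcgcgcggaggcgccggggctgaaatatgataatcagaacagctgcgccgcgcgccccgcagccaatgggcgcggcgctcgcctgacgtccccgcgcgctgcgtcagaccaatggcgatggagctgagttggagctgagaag
Nyx, chrX:13460840-13461089, plus strand: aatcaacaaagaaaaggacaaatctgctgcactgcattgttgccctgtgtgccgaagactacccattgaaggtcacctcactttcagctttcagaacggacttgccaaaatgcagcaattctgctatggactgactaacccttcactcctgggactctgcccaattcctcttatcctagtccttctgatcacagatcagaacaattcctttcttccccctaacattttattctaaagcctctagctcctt
All 10 genes had an entry, with 14 windows because some have several starts. TAATCC was found in 3 of the 14 windows, in *Cabp5* at 160 and at 41 bases before the start, in *Trpm1* (34 bases) and *Isl1* (177 bases), and in 6.25% of all 32851 windows of this length. TAATTA, a palindromic core that many homeodomain proteins bind, was found in 1 window of *Pcp2* and in 4.84% of all windows, and AAGTCA, a half-site of NR2E3 searched on both strands, in none of the 14 and in 13.1% of all windows. These matches describe letters and not binding, and whether the libraries used these starts is not known from FPKM per gene.

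Beyond the 10 members, 55 genes on 6 lists were read, of which 53 were tested. The list of ON cascade partners, the G protein subunits and RGS proteins that act between mGluR6 and TRPM1, had 4 genes higher and 1 lower of 8 tested. Of all genes, 37.6% were called higher and 8.8% lower. The median of the list was 0.18 beside the 0.15 of all genes. The balance of directions depended on the scaling: median-ratio scaling gave 2 higher and 3 lower, quantile normalization 2 higher and 2 lower, and there was 1 of each after the GC and length correction. *Gnb3*, the beta subunit, had by far the largest difference, with an FPKM of 731 and 803 in *rd7* against 222 and 224 in wild-type libraries (log2 difference 1.78, adjusted p = 9.07e-05 from limma). *Gnb3* is also the transducin beta subunit of cones, and the summed FPKM of 8 cone markers was 3304 and 3591 in *rd7* against 1015 and 1048 in wild-type libraries; the part of cones in the *Gnb3* value was not tested. *Gnao1*, the alpha subunit that mGluR6 uses, was higher by 0.21 and *Rgs7* and *Rgs7bp*, which with RGS11 and their anchors end the G protein signal, by 0.32 and 0.27. None of these 3 was called under each of median-ratio scaling, quantile normalization and the GC and length correction. *Gng13*, the gamma subunit, (199 and 222 against 237 and 234 FPKM) and *Rgs11* (30.9 and 25.7 against 34.7 and 31.5) had lower values in *rd7* without passing the test. Both were called lower with median-ratio scaling (-0.32 and -0.38), and *Rgs11* also with quantile normalization (-0.37), while *Gng13* came to 0.01 after the GC and length correction. *Rgs9bp*, an RGS anchor that photoreceptors also use, fell by 0.40 (adjusted p = 0.0232 from limma). *Lrit3*, the gene of another leucine-rich repeat protein of this synapse, was not analysed here.

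Of 5 further rod bipolar markers, 2 rose, a share near the 37.6% of all genes: *Car8*, the gene of a carbonic anhydrase-related protein, with an FPKM of 13.8 and 16.2 in *rd7* against 9.51 and 10.4 in wild-type libraries (log2 difference 0.58, and 0.25 without a call after the GC and length correction), and *Bhlhe23*, a transcription factor of rod bipolar maturation, with 11.1 and 10.3 against 8.13 and 7.99 (log2 difference 0.40). *Sebox* (28.7 and 26.2 against 27.5 and 26.1) and *Vstm2b* (20.6 and 20.5 against 22.3 and 21.4) were not called. With median-ratio scaling *Vstm2b* was called lower.

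Among cone bipolar markers 10 rose and none fell (limma, none at an unadjusted p under 0.05 either) of the 14 tested of 15, with a median of 0.50. Of all genes, 37.6% were called higher and 8.8% lower. With median-ratio scaling 8 of the 14 markers were higher and 1 (*Cck*) lower, with a median of 0.34, beside 19.7% and 19.6% of all genes. Of the markers, 6 were called higher without scaling and under all 3 of median-ratio scaling, quantile normalization and the GC and length correction. Among markers of OFF types, *Grik1*, a kainate receptor through which these cells sense glutamate, rose from 14.2 and 16.0 to 27.9 and 29.1 FPKM (log2 difference 0.91, adjusted p = 0.000922 from limma). *Neto1*, an auxiliary subunit of kainate receptors, rose from 1.48 in both wild-type libraries to 3.37 and 3.40 (1.14). *Pcdh17* (0.67) and *Hcn4* (0.61), a channel gene, also rose, whereas *Lhx3* did not pass the test (4.89 and 4.29 against 4.62 and 4.92 FPKM). Among markers of ON types, the serotonin receptor gene *Htr3a* rose from 1.26 and 1.25 to 3.03 and 2.87 FPKM (1.17) and the potassium channel gene *Kcng4* from 6.06 and 6.65 to 9.61 and 12.4 (0.77). Elsewhere on the cone bipolar list, without regard to ON or OFF type, *Tacr3* (0.54), *Serpini1* (0.45), *Syt2* (0.44) and *Cpne9* (0.31) were called higher. None of these was called under all 3 scalings and corrections. *Cck* (23.0 and 24.6 against 24.5 and 27.5) was not called, but was called lower with median-ratio scaling (-0.28) and quantile normalization (-0.26). *Col11a1* (2.83 and 1.96 against 2.37 and 2.05) was not called. Nor was *Nnat*, with a high value in *rd7* replicate 1 only (57.5 and 31.3 against 31.3 and 30.5). *Erbb4* had a mean FPKM under 1 and was not tested. The ratio of *Grik1* to *Prkca* was 0.767 and 0.796 in *rd7* and 0.499 and 0.496 in wild-type libraries. The difference between the rod bipolar and the cone bipolar list was not tested.

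**Figure D4:**
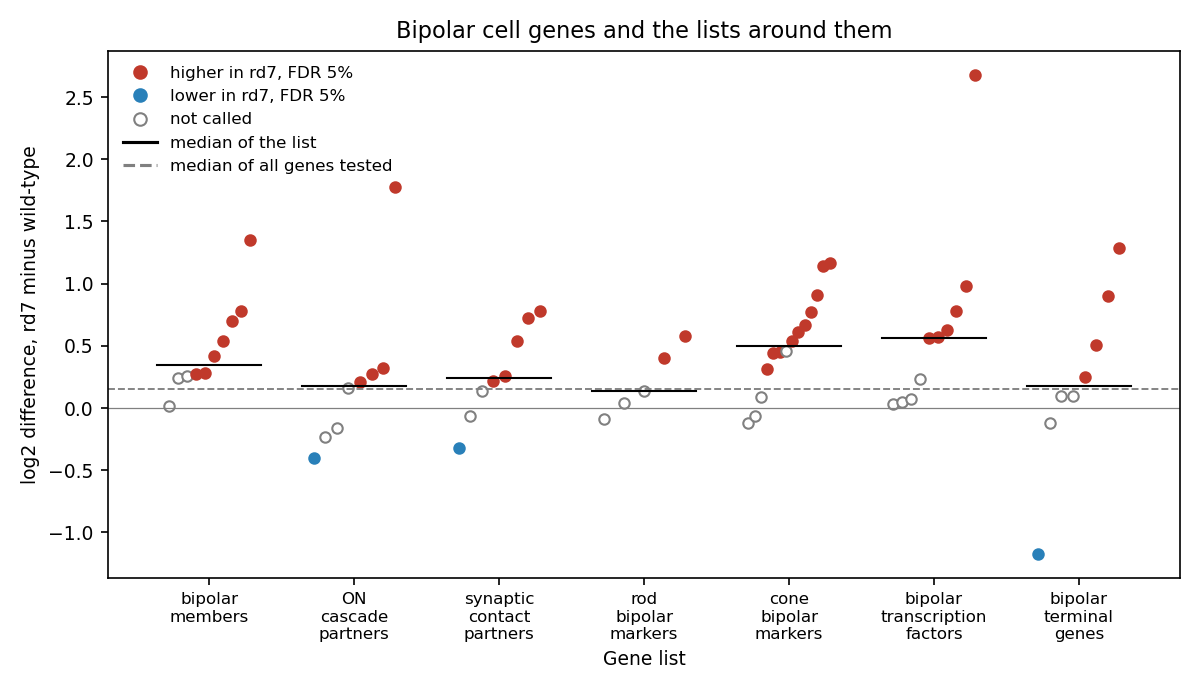
Log2 difference, *rd7* minus wild-type, of every tested gene on the bipolar lists; red points were called higher and blue points lower at an FDR of 5% by limma, open grey points were not called, black lines are list medians and the dashed line is the median of all genes tested (0.15). The medians of cone bipolar markers (0.50) and bipolar transcription factors (0.56) lie above that of ON cascade partners (0.18).

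Of 10 bipolar transcription factors other than *Vsx1* and *Isl1*, 6 rose and none fell (limma, none at an unadjusted p under 0.05 either), with a median of 0.56. Of all genes, 37.6% were called higher and 8.8% lower. The same 6 factors were called under each of the 3 scalings and corrections, where 12.4% to 19.7% of all genes were called higher. *Lhx4* rose most, from 4.85 and 4.07 to 33.3 and 25.2 FPKM (log2 difference 2.68, adjusted p = 0.00039 from limma). *Neurod4* rose by 0.98, *Six6* by 0.78, *Bhlhe22* by 0.63 and *Otx2* by 0.56. *Otx2*, which photoreceptors also express, had 132 and 117 FPKM in *rd7* against 86.2 and 82.1 FPKM in wild-type libraries. *Lhx4* and *Neurod4* are not restricted to bipolar cells either. The share of photoreceptors and of other cells in the values of the 6 factors was not tested. *Irx5*, *Irx6*, *Prdm8* and *Fezf2*, factors of particular bipolar types, were not called, with log2 differences between 0.03 and 0.23.

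Genes of the bipolar cell body and terminal were mixed. Among the GABA-C receptor subunits, which receive amacrine inhibition at the terminal, *Gabrr3* rose from 4.68 and 4.48 to 12.4 and 10.4 FPKM (1.29) and *Gabrr1* from 34.2 and 35.9 to 48.5 and 51.6 (0.51), while *Gabrr2* was not called (31.3 and 36.8 against 32.5 and 31.0). *Lrtm1* rose by 0.90. *Cplx3*, a complexin of ribbon synapses, was higher by 0.25 and lost its call in each of the 3 scalings. *Kcnj14*, a gene of an inwardly rectifying potassium channel, fell from 184 and 183 to 68.9 and 96.4 FPKM (log2 difference -1.17, adjusted p = 0.00297 from limma). The part of photoreceptors and other cells in the *Kcnj14* value was not tested. *Cabp2* and *Slc12a5* were not called.

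On the photoreceptor side of the synapse, 5 of 8 genes rose and 1 fell, beside 37.6% and 8.8% of all genes. Under each of median-ratio scaling, quantile normalization and the GC and length correction 3 were higher, with 1, 1 and 2 lower. *Elfn1*, through which rods attach to mGluR6, did not pass the test (24.1 and 26.9 against 26.3 and 26.8 FPKM), whereas *Elfn2*, its relative at cones, rose from 7.51 and 8.11 to 12.3 and 13.6 (log2 difference 0.72, adjusted p = 0.00182 from limma). *Dag1*, the gene of dystroglycan, rose by 0.78 and *Egflam*, whose product pikachurin binds dystroglycan at the ribbon synapse, by 0.26. *Egflam* and *Cacna2d4*, the gene of a calcium channel subunit (0.22), were called in none of these 3. *Lrit1* rose by 0.54. *Cacna1f*, the gene of the photoreceptor calcium channel, fell by 0.32 (adjusted p = 0.0178 from limma).

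Markers of other retinal cell types were read beside the 37.6% of all genes called higher. Horizontal cell markers were called higher in 3 of 3 genes tested, Müller glia markers in 4 of 6, amacrine cell markers in 5 of 8, ganglion cell markers in 2 of 8, and cone markers in 6 of 8, while rod markers were called lower in 3 of 6. With median-ratio scaling, where 19.7% of all genes were called higher, the higher counts were 2, 3, 1, 1 and 6. No horizontal, amacrine, ganglion cell or rod marker was called higher by limma both without scaling and under all 3 of median-ratio scaling, quantile normalization and the GC and length correction. By the same rule 6 of 8 cone markers, 3 of 6 Müller glia markers, 2 of 3 pigment epithelium markers and 2 of 3 microglia markers were called higher. Pigment epithelium markers, which can report carried-over tissue, were called higher in 3 of 3 tested. Of the untested ones, with a mean FPKM under 1, *Best1* was lower in *rd7* (0.11 and 0.0707 against 0.178 and 0.236) and *Lrat* higher (1.12 and 0.881 against 0.324 and 0.235). The summed FPKM of this list was 54.9 and 50.8 in *rd7* and 30.1 and 17.9 in wild-type libraries, of which *Ttr* gave 39.3 and 34.9 and 21.1 and 13.1. Microglia markers were called higher in 2 of 3, with a summed FPKM of 7.70 and 8.18 against 5.43 and 5.76. None of the markers in these sums was at 0 in any library. The summed FPKM of the 10 bipolar cell genes, to which *Pcp2* gave the largest share in each library, was 762 and 629 in *rd7* and 563 and 533 in wild-type libraries. Annotated genes on the opposite strand overlap *Grm6*, *Pcp2*, *Prkca* and *Scgn*, and since the library protocol does not mention strand, reads from such a pair cannot be told apart. The part of other cells in the differences of the bipolar cell genes was not tested.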

How the data were processed

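RNA-seq was analysed from 4 libraries. Single-end 50 bp reads had been aligned by the authors (TopHat 1.4.1, build mm9), who deposited FPKM per gene and library from Cufflinks 1.3.0, each with a status. A deposited table of the authors' Cuffdiff comparison, with pooled FPKM, fold changes and p-values, was not used. Loci with a status other than OK in any library (262) were left out, and the 12655 genes whose mean FPKM reached 1 were compared as log2(FPKM + 0.1) by limma 3.58.1 (R 4.3.3), with a trended eBayes fit, Benjamini-Hochberg adjustment and no block. Intervals are 95% intervals from that fit. The members and lists were chosen with earlier results of these data known. Genes named are the members, genes of the lists a sentence is about, *Nr2e3*, and the 5 genes nearest to the members' mean profile. *Mir211* was added for its position. Older symbols were matched through RefSeq synonyms, and *Lrit3* and *Cngb1* were not analysed here. Some list genes enter counts but are not reported here by name. Positions follow the files, with the first base counted as 1. Exonic length and GC content came from GENCODE vM1 on the same build, for 96.9% of genes tested.

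The files hold no counts. From the lowest FPKM of genes with 1 transcript, within a window chosen by eye (0.02 to 0.036 FPKM times kb), 1 read was worth about 0.0281 to 0.0287, which gives roughly 546 to 26321 reads behind a member's value in a library. Simulated data were used to test the fit. Alternatives were pseudocounts of 1 and 0.01, no filter or one at 5 FPKM, scaling by median ratios or by quantiles, no variance trend, a replicate block, each library left out, an FDR of 1%, and natural-spline correction for GC content and exonic length. Without the stricter FDR these are 13 refits.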

Additional observations from a re-analysis of the deposited data

How the results depend on the processing

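Of the bipolar cell genes, 7 were called higher. With median-ratio scaling, quantile normalization and the GC and length correction, 4 were called. With each library left out the count ranged from 4 to 9: it was 4 without wild-type replicate 1 and 9 without *rd7* replicate 2, where *Grm6* and *Pcp2* were called too. No member was called lower by limma in any setting. The median difference of the members, 0.35, came to 0.20 under median-ratio scaling and to 0.16 after the GC and length correction, both of which bring the median of all genes to near 0 by construction. Leaving out a library gave medians of 0.29 to 0.52, the highest without *rd7* replicate 2. *Gpr179* changed sign without being called with median-ratio scaling (-0.14), quantile normalization (-0.13) and the GC and length correction (-0.06), and leaving out a library gave -0.03 to 0.07. *Prkca* changed sign with the GC and length correction (-0.04). On the 6 lists beside the members, 31 genes were higher and 3 lower of 53 tested, beside 37.6% and 8.8% of all genes. There were 19 higher and 0 lower without a filter on low FPKM, 7 lower with median-ratio scaling, 6 lower with quantile normalization, 20 higher with the GC and length correction and 1 lower at an FDR of 1%, and leaving out a library gave 17 to 35 higher and 1 to 4 lower, with 17 and 1 without wild-type replicate 1 and 19 and 1 without wild-type replicate 2. The cause was not tested where scaling or the correction moved a count. Replicate numbers were not taken as pairs (deviations of the libraries numbered 1 had r = -0.0265 across genes), and with a replicate block 7 members were higher, with a median of 0.35, and 31 genes of the lists were higher and 4 lower. With 2 pools of each genotype, p-values set a difference against the spread between pools. The trended eBayes fit draws that spread in part from other genes.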

Other observations

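The mean profile of the 10 bipolar cell genes, as log2(FPKM + 0.1) centred on each gene's mean over the 4 libraries, was 0.31 and 0.17 in the *rd7* libraries and -0.24 in both wild-type libraries. The genes outside the members that lay nearest to it by Euclidean distance over the 4 libraries were *Abat* (distance 0.00673), the gene of GABA transaminase, *D11Wsu99e* (0.0137), *Pcdhga7* (0.0158), *Dact2* (0.0168) and *Nfkbia* (0.0177), the gene of an NF-kappaB inhibitor. *Abat* had an FPKM of 33.5 and 30.5 in *rd7* and of 22.8 and 22.9 in wild-type libraries. With only 4 libraries many genes share such a profile, and 333 lay within a distance of 0.1.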
